A study of Canis lupus familiaris with 4 samples.

Results

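Annexin A2 (ANXA2) is a calcium-dependent membrane-binding protein that recruits plasminogen activators to the cell surface. J3T-1shA and J3T-2, the lines labelled low in annexin A2, were set against each other across all measured genes, to ask how unlike 2 lines of the same annexin A2 state were. All lines came from the same parental canine glioblastoma cells, J3T, and were grown in the same medium with serum. J3T-1shA is the subclone J3T-1 after knockdown of annexin A2, and J3T-2 is an unmodified subclone labelled as expressing little of it. The remaining lines of the series are J3T-1, labelled high in annexin A2, and J3T-2A, which is J3T-2 with annexin A2 overexpressed. Each line is a single subclone measured on 1 array, so clone, culture and annexin A2 state cannot be told apart, and a J3T-1 line carrying a control construct was not analysed here. Genes were chosen by signal alone: the probe sets that carry a single gene symbol stand for 15115 genes, each gene was represented by its brightest probe set, and the 7012 genes whose higher signal reached 250 were taken as measured. All ratios are J3T-1shA over J3T-2.

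Several programs named below have well known controls. Serum response factor, with its actin-sensing coactivators, drives the contractile genes of smooth muscle cells and myofibroblasts. YAP and its TEAD partners drive CCN1, CCN2 and ANKRD1 in spread cells under tension. NF-kB drives chemokines and its own inhibitor NFKBIA, and interferons drive antigen presentation genes. Glioblastoma cells are known to vary between states that resemble neural progenitors and states that resemble mesenchymal, matrix-forming cells.

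The ANXA2 signal did not separate the lines. J3T-1shA gave 30093 and J3T-2 gave 30102, against 28656 for J3T-1 and 28775 for J3T-2A. A second ANXA2 probe set gave a log2 ratio of -0.24. By the brightest probe set J3T-1shA was thus not lower than J3T-1, nor J3T-2A higher than J3T-2. Signals this bright lie toward the top of the scale, where the highest were 44435 to 46646. Whether they can still show a difference was not tested. The labelled difference in annexin A2 was not seen in these RNA signals, and every line is named below as its array is labelled. The arrays had trimmed means of 495.8 to 496.0 and medians of 101.8 to 106.5, and their number limits the precision of every ratio. With no replicates there is no test and no error between cultures. The astrocyte markers GFAP, AQP4 and ALDH1L1 were under 250 on both arrays, whereas the neural progenitor gene SOX2 had 1662 and 1454. Of 12 astrocyte markers 5 were measured, SLC1A3 and CLU among them, and GFAP was not.

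In all, 308 of the 7012 genes (4.39%) had signals more than 2-fold higher in J3T-1shA and 372 (5.31%) were over 2-fold lower. The other 6332 genes, 90.3%, lay within 2-fold, and the median log2 ratio was 0.01. These counts and all log2 ratios use the signals as they stand. Where only 1 of the 2 signals reached 250, the fold is printed as a lower bound with the dimmer signal taken as 250, which can fall under 2 for a gene counted as over 2-fold. A gene of this kind passed the signal limit through its brighter array alone. Both signals reached 250 for 6160 genes, of which 144 (2.34%) were over 2-fold higher and 181 (2.94%) over 2-fold lower, 34 and 24 of them over 4-fold. The genes nearest the 2-fold threshold had log2 ratios of 1.002 and 0.998 on the higher side and of -1.001 and -0.999 on the lower side. A second probe set was available for 294 of the 680 genes over 2-fold, and for 232 it was also over 2-fold in the same direction. It had the same sign for 291 of them. Over all 3806 genes with a second probe set, the SD of the difference between the log2 ratios was 0.41, which covers the measurement within 1 RNA sample only.

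**Figure D1:**
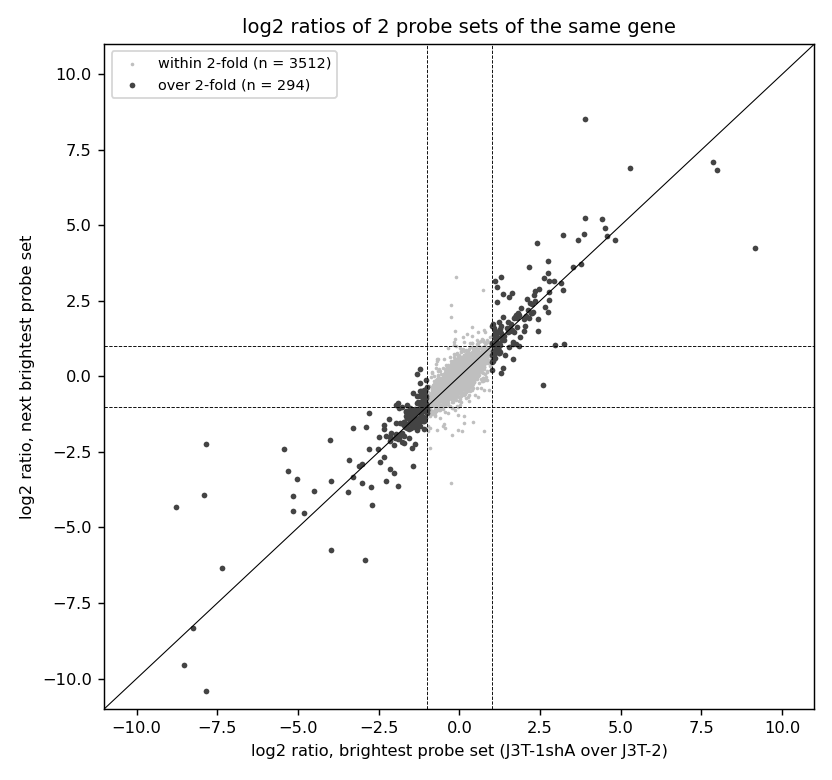
Log2 ratio of the next brightest probe set (y axis) against that of the brightest (x axis), J3T-1shA over J3T-2, for 3806 genes with 2 measured probe sets. Dark points are the 294 genes over 2-fold by the brightest probe set, 232 of which lie beyond the dashed 2-fold line on the same side by the other.

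**Figure D2:**
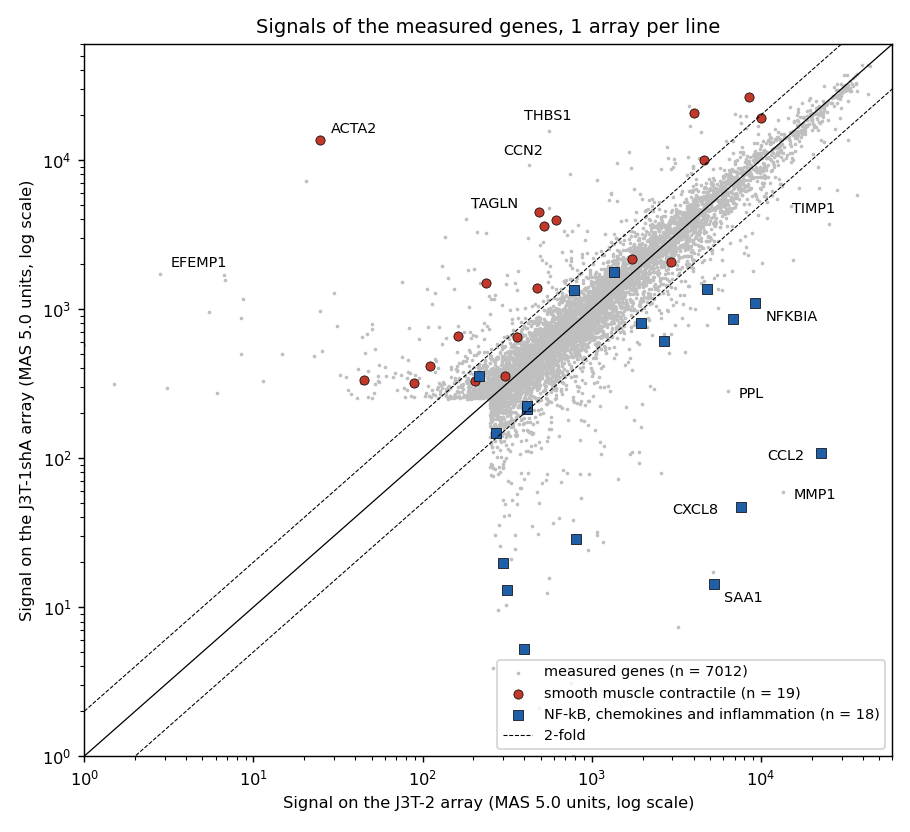
Signals of the 7012 measured genes on the array labelled J3T-2 (x axis) and on that labelled J3T-1shA (y axis), both in MAS 5.0 units on log scales, 1 array per line. Red circles are the 19 measured smooth muscle contractile genes, 13 of them above the upper 2-fold line, and blue squares the 18 NF-kB and inflammation genes, 12 of them below the lower 2-fold line.

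Contractile genes of smooth muscle were higher on the array labelled J3T-1shA. ACTA2, which encodes smooth muscle actin, gave 13625 there and 24.9 in J3T-2, at least 54.5-fold higher. The arrays labelled J3T-1 and J3T-2A gave 562 and 98.7, so the J3T-1shA array stood far above all others. TAGLN, the actin-bundling protein transgelin, had 4487 against 489.8 (9.16-fold). MYL9, a myosin light chain, had 3951 against 616 (6.42-fold). CSRP1, a muscle LIM protein, had 3631 against 526 (6.91-fold). These proteins all act on the actin and myosin apparatus, and TAGLN and CSRP1 were over 2-fold higher by a second probe set as well. CALD1, caldesmon, had 20515 against 4034, with log2 ratios of 2.35 and 2.83 by its brightest and next probe sets. CNN1, calponin, had 1494 against 238 (at least 5.98-fold), and TPM1, a tropomyosin, had 26412 against 8525 (3.10-fold). TGFB1I1, FLNA, CNN2, MYLK, ACTG2 and SYNPO2 completed the 13 genes over 2-fold higher. None of the 19 measured genes was over 2-fold lower, and 18 of 19 had a log2 ratio above 0. CSRP2 was the exception, at 2079 against 2943. SRF, the serum response factor itself, was within 2-fold at 653 against 363.
The list's median log2 ratio was 1.84, against 0.01 over all measured genes. It was 1.32 over the 12 genes with both signals at 250 or more, 7 of them over 2-fold higher, and 1.53 over all 25 genes of the list. It came to 1.37 with signals under 160 raised to 160. MYH11, LMOD1, DES and MYOCD, markers of mature muscle, were under 250 on both arrays. Probe sets of actin genes can read each other's transcripts, so the split between ACTA2 and ACTG2 is uncertain.

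Targets of YAP and TEAD were divided, with more of them on the higher side. CCN2, connective tissue growth factor, gave 9185 in J3T-1shA and 426 in J3T-2, a 21.6-fold difference. On the arrays labelled J3T-1 and J3T-2A it had 4024 and 1808. CCN1, a related matricellular protein, had 22959.9 against 3764 (6.10-fold). The order of the 4 arrays was the same for both CCN genes, with J3T-1shA highest and J3T-2 lowest. ANKRD1, a nuclear ankyrin repeat protein of stretched muscle, had 1562 against 6.8 (at least 6.25-fold). GADD45B, a stress-induced growth regulator, had 3260.5 against 210.1 (at least 13-fold), and LATS2, a kinase that restrains YAP, had 1149 against 554 (2.07-fold). Lower members were AXL and NT5E. NT5E, the adenosine-forming ecto-enzyme CD73, had 7.4 against 3259, at least 13-fold lower. Of 10 measured targets 5 were over 2-fold higher and 2 over 2-fold lower, and the median log2 ratio was 0.92. With both signals at 250 or more, 3 of 6 were higher and none lower. The median was 1.83 with the signal limit raised to 500. YAP1 was within 2-fold (1692 against 1449), and so was WWTR1 (1942 against 2609). WWC1 and WWC2, upstream regulators of this pathway, were both higher on the array labelled J3T-1shA. WWC1 had 2819 against 514 (5.48-fold), and WWC2 had 1475 against 311 (4.74-fold) and was named after its values were seen.

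THBS1, which encodes the matrix protein and angiogenesis inhibitor thrombospondin-1, had the largest ratio of all genes with both signals at 250 or more. Its signal was 15622 in J3T-1shA and 558 in J3T-2, a 28-fold difference, and its second probe set gave a log2 ratio of 4.52. The arrays labelled J3T-1 and J3T-2A had 11390.2 and 1851. Both lines derived from J3T-1 thus lay above both derived from J3T-2.

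Among the fibrillar collagens the differences were uneven. COL1A1, a chain of type I collagen, gave 16842 against 3799 (4.43-fold higher), while COL1A2, the partner chain, had 31252 against 23488, within 2-fold and near the top of the scale. COL5A2 had 20399.9 against 7042 (2.90-fold higher). COL5A1, the other chain of type V collagen, had 8772 against 3952 (2.22-fold higher). The basement membrane chains COL4A1 (5994 against 5596) and COL4A2 (5999 against 6239) were nearly level. COL13A1, a transmembrane collagen, was the single chain over 2-fold lower (57.3 against 363). Of the 10 measured collagen genes 4 were over 2-fold higher and 1 lower, with a median log2 ratio of 0.26, and 3 of the 8 with both signals at 250 or more were higher. COL3A1, COL6A1, COL6A3 and COL12A1 were under 250 on both arrays.
Enzymes that cross-link collagen were higher, while a few other processing genes were lower. LOX, a lysyl oxidase, had 3337 against 937 (3.56-fold higher). LOXL2 had 10239 against 2838 (3.61-fold), and LOXL3 had 3685 against 826 (4.46-fold). The 3 measured lysyl oxidase genes thus lay on the same side. P3H2, a prolyl 3-hydroxylase, had 1506 against 75.7 (at least 6.02-fold higher). PCOLCE, which enhances removal of the procollagen propeptide, was 2.65-fold lower (4094 against 10846). P4HA3, a prolyl 4-hydroxylase, was 3.91-fold lower (302 against 1179). The list of 14 measured processing genes held 4 over 2-fold higher and 2 over 2-fold lower, with a median of 0.30.
Of 20 measured non-collagen matrix genes, 6 were over 2-fold higher and 2 lower, with a median log2 ratio of 0.11. Over the 16 with both signals at 250 or more 2 were higher and 2 lower, with a median of -0.16. EFEMP1, the fibulin-3 gene, had 1706 against 2.8 (at least 6.82-fold higher), and the other arrays had 33.0 and 62.5. FMOD, the collagen-binding proteoglycan fibromodulin, had 1957 against 131 (at least 7.83-fold). CCDC80, a secreted matrix protein, had 12295 against 2792 (4.40-fold). HAS2, a hyaluronan synthase, and FBN2, fibrillin-2, were only just above 250 on the array labelled J3T-1shA, at 285 against 70.9 and 254 against 41.0. VCAN, the large proteoglycan versican, was 2.21-fold lower (474 against 1047). FBLN1, fibulin-1, was 2.56-fold lower (981 against 2509.7). FN1, LUM and SPARC, bright matrix genes, were within 2-fold. LUM had 18644 against 25065, the opposite side from its relative FMOD.

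Genes of the TGF-beta and BMP pathway were over 2-fold higher in 6 of 20 cases and over 2-fold lower in none. TGFBI, a matrix protein induced by TGF-beta, gave 2908 on the array labelled J3T-1shA against 910.2 (3.19-fold). PMEPA1, a feedback inhibitor of the same pathway, had 5358 against 1271 (4.22-fold), with a log2 ratio of 1.99 by its second probe set. BMP6, a ligand, had 2117 against 512 (4.14-fold). The other members over 2-fold higher are a ligand, a latency protein and a decoy receptor. They were TGFB3 (389.5 against 160.4), LTBP1 (760.0 against 108) and BAMBI (801 against 229.7). TGFB1 had 431 against 626 and TGFBR2, a receptor, 2623 against 3794, both within 2-fold and on the lower side. SMAD2, SMAD4, ID1 and ID3 were within 2-fold as well, and the list's median was 0.21. With both signals at 250 or more, 3 of 16 were over 2-fold higher, and that median was 0.03.

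Several secreted Wnt pathway genes were higher. WNT5B, a ligand, had 4796 against 559, a difference of 8.58-fold, with the arrays labelled J3T-1 and J3T-2A in between (1742 and 1976). DKK3, a secreted modulator, had 10149 against 3049 (3.33-fold). GPC4, a cell surface glypican, had 1499 against 354 (4.23-fold). Antagonists followed the same direction. SFRP4 had 574 against 1.0 (at least 2.30-fold) and lay under 10 on each of the other arrays. FRZB had 463 against 118 (at least 1.85-fold), and NOTUM, an enzyme that inactivates Wnt ligands, had 821 against 384 (2.14-fold). AXIN2, a target of canonical Wnt signalling, was within 2-fold on the lower side (340.5 against 617). Of the 10 measured genes 6 were over 2-fold higher and none lower, with a median of 1.42. Over the 8 with both signals at 250 or more 4 were higher and the median was 0.49, while 20 of the 30 genes on the array were under 250 on both arrays and the median over all 30 was -0.04.

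Further genes with large ratios on the higher side had little in common in their known roles. ECRG4, a secreted tumour suppressor candidate, had 7262 against 20.6 (at least 29-fold), with 278 and 456 on the arrays labelled J3T-1 and J3T-2A. SCUBE3, a secreted EGF-repeat protein, had 4823 against 203 (at least 19.3-fold). TMEM47, a junction protein, had 3062 against 135 (at least 12.2-fold). In each case the J3T-1shA array was the brightest of the 4. STRIT1, which encodes a small activator of the sarcoplasmic calcium pump, had 4024 against 181 (at least 16.1-fold). CRYAB, the small heat shock protein alpha-B crystallin, had 7996 against 743 (10.8-fold), whereas the other 11 measured chaperone genes were within 2-fold (median of the 12, 0.06). PHYHIPL differed from these, since it was low only on the array labelled J3T-2: it had 3233, 3976 and 3409 in J3T-1shA, J3T-1 and J3T-2A and 236 in J3T-2. ADM, the vasodilator adrenomedullin, showed the same arrangement, at 2992, 2075 and 1766 against 418. EPDR1, LMO7, SPATS2L, MARCHF3 and ALDH2 were between 5.38-fold and 6.81-fold higher, each with a second probe set over 2-fold the same way.

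**Figure D3:**
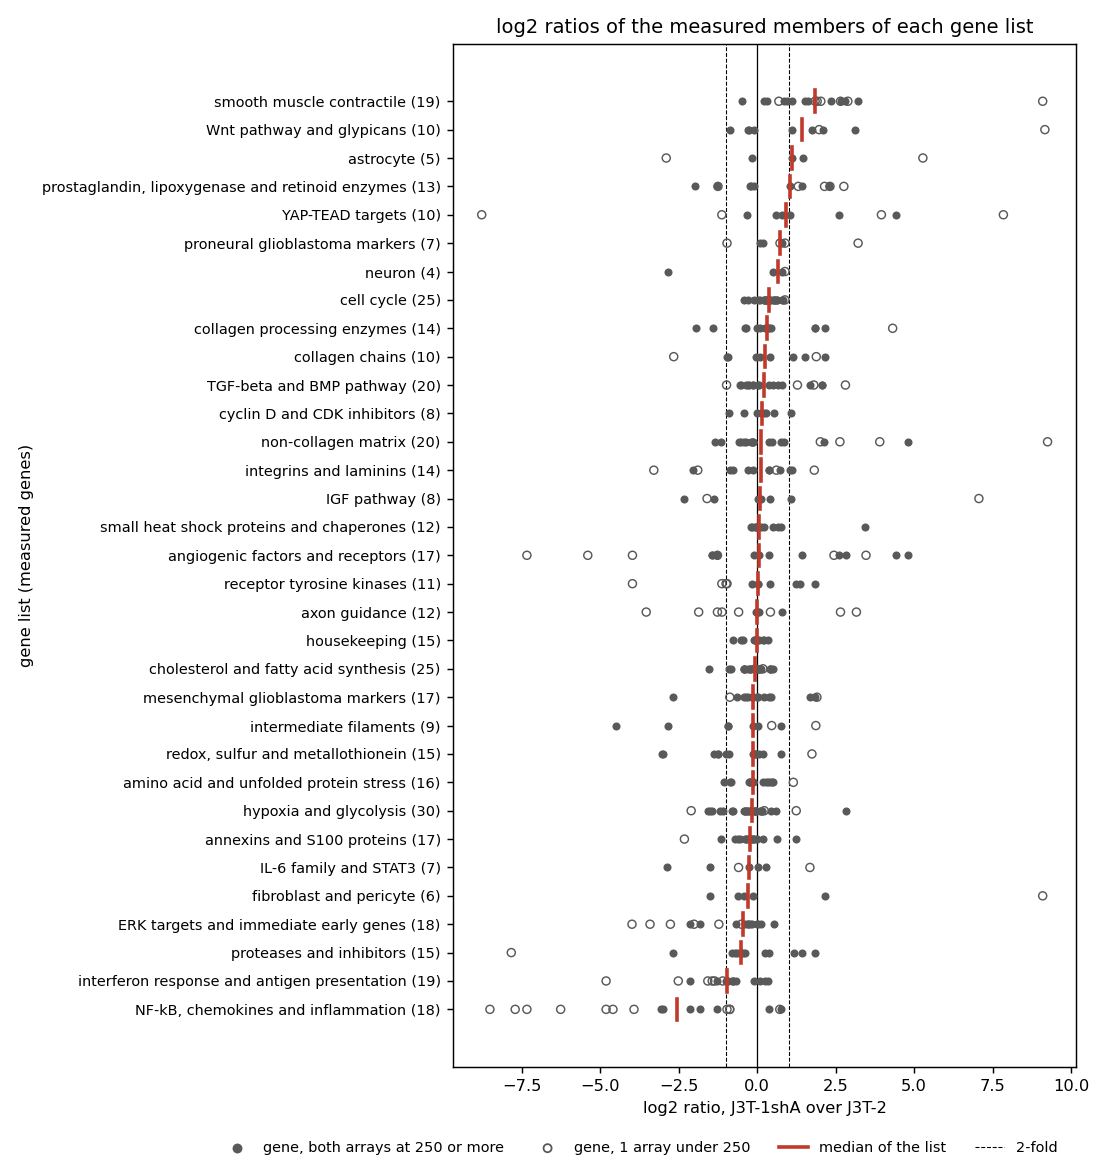
Log2 ratios, J3T-1shA over J3T-2 (x axis), of the measured genes of each list with 4 or more of them (y axis, number of genes in parentheses). Filled points have both signals at 250 or more, open points have 1 under it, red bars are medians and dashed lines mark 2-fold; contractile genes have the highest median (1.84) and NF-kB and inflammation genes the lowest (-2.57).

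On the opposite side, chemokines and other NF-kB genes were far lower on the array labelled J3T-1shA. CCL2, which attracts monocytes, gave 108 there and 22771 in J3T-2, at least 91.1-fold lower. J3T-1 gave 754 and J3T-2A gave 18212. CXCL8, the neutrophil chemokine interleukin-8, had 46.9 against 7611, and 691 and 8418 on those arrays. For both chemokines the arrays of the J3T-2 lines were high and those of the J3T-1 lines were low, without overlap. CCL7 (5.2 against 400.3) and CXCL10 (28.7 against 809.7) lay in the same order. SAA1, an acute-phase protein, had 14.3 against 5252 (at least 21-fold lower). CXCL14 ran differently, with 2664 on the array labelled J3T-2 and 606, 373 and 361 on those labelled J3T-1shA, J3T-1 and J3T-2A.
Feedback and survival genes of the pathway were lower as well. NFKBIA, the inhibitor of NF-kB and one of its targets, had 1103 against 9244 (8.38-fold lower). SOD2, the mitochondrial superoxide dismutase, had 856 against 6866 (8.02-fold). BCL2A1, an anti-apoptotic protein, had 1353 against 4779.9 (3.53-fold). NFKB1, a subunit, had 809 against 1962 (2.43-fold lower), though its second probe set gave a log2 ratio of -0.84. VCAM1 and CSF1 were the remaining members over 2-fold lower. The list held 18 measured genes, 12 over 2-fold lower and none over 2-fold higher. ICAM1 (1337 against 785), BIRC3 (1759.5 against 1355) and CXCL16 lay within 2-fold on the higher side. The median log2 ratio was -2.57, and it was -1.82 over the 7 genes with both signals at 250 or more, -1.48 over all 30 genes and -1.30 with signals under 160 raised to 160. RELA, REL and TNFAIP3 were under 250 on both arrays. TNFAIP2, an NF-kB target outside the list, had 106 against 1692, and C1S, a complement protease, had 79.0 against 2574.

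Interferon-induced and antigen presentation genes leaned the same way, in 8 of 19 cases by over 2-fold. IRF1, a transcription factor of this response, gave 389.7 against 1730.4 (4.44-fold lower), and IFI44L had 167 against 955 (at least 3.82-fold). OAS2, an antiviral enzyme, had 555 against 1355 (2.44-fold). B2M, the light chain of MHC class I, had 16092 against 27301, and TAPBP, PSMB8 and PSMB9, which load or cut peptides, had log2 ratios of -0.96, -0.94 and -0.99. None of the 19 measured genes was over 2-fold higher, and 16 had a log2 ratio below 0, with a median of -0.96. Over the 13 genes with both signals at 250 or more the count over 2-fold lower was 2, with a median of -0.79. CXCL10 belongs to this list and to the preceding one. GCH1, a cytokine-induced enzyme of biopterin synthesis, had 230.1 against 1979.9 (at least 7.92-fold lower).

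Among proteases and their inhibitors, MMP1 was split by line of origin. MMP1, the interstitial collagenase, gave 59.2 in J3T-1shA and 44.8 in J3T-1, against 13568 in J3T-2 and 14605 in J3T-2A. It was at least 54.3-fold lower in J3T-1shA than in J3T-2, and its second probe set was likewise under 250 in J3T-1shA and far above it in J3T-2. TIMP1, which inhibits metalloproteinases, was instead low on the array labelled J3T-1shA only: it had 5807 there and 37282, 28104 and 21772 on those labelled J3T-2, J3T-1 and J3T-2A. It was 6.42-fold lower than on the array labelled J3T-2, where its signal was near the top of the scale. TIMP3, PLAU and PRSS23 were over 2-fold higher. TIMP3 had 1826 against 817, PRSS23, a serine protease, had 6352 against 1787, and PLAU, the urokinase that activates plasminogen, had 2334 against 874. The lysosomal proteases CTSB, CTSD, CTSK and CTSS and the sheddase ADAM10 were all within 2-fold on the lower side. The list held 15 measured genes, 3 over 2-fold higher and 2 lower, with a median of -0.52.

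Angiogenic factors were divided, with 7 of 17 measured genes over 2-fold higher in J3T-1shA and 7 over 2-fold lower. VEGFA, the main endothelial growth factor, gave 1635 against 4469.9 (2.73-fold lower), and 4725 and 4039.5 on the arrays labelled J3T-1 and J3T-2A. The J3T-1shA array was thus the low one. FLT1, a VEGF receptor, was also low there alone, at 110.1 against 1736, 1021 and 1179.5. HGF, the ligand of MET, had 27.5 against 1163 (at least 4.65-fold lower). FGF2 (2.75-fold), PDGFC (2.43-fold) and NRP1 were also lower, as was CXCL8. NRP1 had a log2 ratio of -0.88 by its second probe set. The higher genes were THBS1, CCN1, CCN2, ADM, PLAU, ANGPT1 and EDN1. ANGPT1, a ligand that stabilizes vessels, had 1027 against 189 (at least 4.11-fold), and EDN1, the vasoconstrictor endothelin-1, had 359 against 32.5, with under 20 on the arrays labelled J3T-1 and J3T-2A. The growth factors VEGFA, FGF2, HGF and PDGFC were on the lower side, while 4 of the 7 higher genes (THBS1, CCN1, CCN2 and PLAU) are matricellular or matrix-degrading proteins. The remaining higher genes, ADM, ANGPT1 and EDN1, encode secreted ligands, and VEGFB was within 2-fold (2610 against 2823). The genes thus did not divide cleanly by these roles. The median was 0.04, and with both signals at 250 or more 5 of 11 genes were higher and 3 lower.

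Receptor tyrosine kinases were divided in the same manner. MET gave 2421 against 671 (3.61-fold higher), opposite in direction to its ligand HGF. NTRK2, the BDNF receptor, had 2248 against 873 (2.57-fold higher). FGFR2 had 1046 against 446 (2.35-fold higher) but a log2 ratio of 0.84 by its second probe set. FLT1 and AXL were over 2-fold lower. PDGFRA had 181 against 353 and EGFR was under 250 on both arrays. Of 11 measured genes 3 were higher and 2 lower, with a median of 0.03, and both lower ones had a J3T-1shA signal under 250.

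Of 18 measured ERK targets and early response genes, 7 were over 2-fold lower on the array labelled J3T-1shA and 11 were within 2-fold. EGR1 gave 106 against 1133, FOS 153 against 1045 and NR4A2 54.0 against 859.8, all transcription factors induced within minutes of stimulation. ETV1, a transcription factor stabilized by ERK signalling, had 1332 against 5911 (4.44-fold lower), with 5413 and 3824 on the arrays labelled J3T-1 and J3T-2A. IER3 was 3.55-fold lower (1700.4 against 6031). PHLDA1 and DUSP5, a phosphatase that acts on ERK, were the other genes over 2-fold lower. Some bright targets in the list were within 2-fold: DUSP6 had 14419 against 16374, CCND1 7615 against 5209, JUN 4926 against 6067 and IER2 3561 against 3545. ETV1 and IER3, about as bright as JUN in J3T-2, were not. The median was -0.44. It was -0.95 over the 14 genes left at a signal limit of 500. Among the 12 genes with both signals at 250 or more, 2 were over 2-fold lower.

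IL-6 family members were sparse. IL11, a cytokine of this family, gave 306 against 2221 (7.27-fold lower), and JAK2 had 496 against 1399 (2.82-fold lower, with a log2 ratio of -1.07 by its second probe set). SOCS2, a feedback inhibitor, had 719 against 225 (at least 2.88-fold higher). STAT3 was within 2-fold, at 812 against 967. OSMR, the oncostatin M receptor, was under 250 on both arrays (116 and 201), as were IL6, LIF, OSM, IL6R, LIFR and IL6ST. Of 7 measured genes 1 was over 2-fold higher and 2 lower, with a median of -0.25.

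Integrin subunits differed in both directions. ITGA6 gave 13494 against 6240.4 (2.16-fold higher), and ITGA5, the fibronectin receptor subunit, had 1282 against 628 (2.04-fold higher) but a log2 ratio of 0.51 by its second probe set. ITGA2, a collagen receptor subunit, was 4.11-fold lower (996 against 4088), and ITGA7 and ITGA3, which bind laminin, had 121 against 1187 and 229.8 against 856. ITGA1 was over 2-fold higher at a signal close to 250. The common beta subunit ITGB1 was within 2-fold. In the list of integrins and laminins 3 of 14 measured genes were over 2-fold higher and 3 lower (median 0.11), and 2 of 10 were higher and 1 lower with both signals at 250 or more.
Among 12 measured axon guidance genes 2 were higher and 4 lower. SLIT3, a secreted repellent, had 747 against 83.6 (at least 2.99-fold higher), and SEMA3C 478 against 76.1. SEMA3A, SEMA3B and SEMA3F, semaphorins of the same class, were lower instead. SEMA3A had 30.4 against 354, and NRP1, its receptor, 239 against 576. The median of the 12 was 0.00. The 6 genes over 2-fold reached 250 on 1 array only, and of the 4 axon guidance genes with both signals at 250 or more none was over 2-fold higher or lower.

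Binding proteins of insulin-like growth factors differed in both directions. IGFBP2 gave 1164 against 8.7 (at least 4.66-fold higher), and 198 and 56.6 on the arrays labelled J3T-1 and J3T-2A. IGFBP6 had 2027 against 10128 (5.0-fold lower) and IGFBP4 3093 against 8048 (2.60-fold lower). IGFBP5 was lower too. IGFBP7, also bright, was within 2-fold (19068 against 14446), and over the 8 measured genes of this pathway 2 were higher and 3 lower, with a median of 0.07.

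Genes of retinoid and prostaglandin metabolism differed in both directions. RARB, a retinoic acid receptor and a target of retinoic acid, had 1488 against 219.8 (at least 5.95-fold higher). RDH10, which makes retinal, had 3206 against 1195 (2.68-fold higher), and CYP1B1, a cytochrome P450, had 3361 against 687 (4.89-fold higher). CRABP1, a retinoic acid binding protein, and DHRS3 were over 2-fold higher with the J3T-2 signal under 250. RARRES1 and RARRES2, whose names come from their induction by retinoids, were on the lower side: RARRES1 had 8916 against 21847 (2.45-fold) and RARRES2, the chemerin gene, 876 against 3433 (3.92-fold). PTGES, a prostaglandin E synthase, was 2.05-fold higher, PTGIS was higher at a signal close to 250, and ALOX15B was lower. The 13 measured genes held 7 over 2-fold higher and 3 lower with a median of 1.03, and the 8 with both signals at 250 or more held 3 higher and 2 lower with a median of -0.16. The sign of this median depended on the signal limit, since it was -0.11 at a limit of 500 and -0.21 over all 23 genes.

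Oxygen and redox genes were mostly within 2-fold, and both gene lists held more genes over 2-fold lower than higher. Over all measured genes 5.31% were over 2-fold lower and 4.39% higher. Both list medians were smaller in size than the SD of 0.41 between probe sets. In the hypoxia and glycolysis list 6 of 30 measured genes were over 2-fold lower, 2 higher and 22 within 2-fold (median -0.18). NDRG1 (116 against 500.2), DDIT4 (259 against 773) and ENO2 (471 against 1346) were lower, with VEGFA, SLC2A3 and PKM. PKM gave a log2 ratio of -0.47 by its second probe set. ADM and EGLN3 were higher, and the glycolytic enzymes ALDOA, ENO1, PGK1 and LDHA were level within a log2 ratio of 0.12. The enzymes ALDOC (3604 against 6280), GPI (7742.5 against 10095) and TPI1 (6648 against 8356) were within 2-fold on the lower side. Of the 30 genes 21 had a log2 ratio below 0 and 9 above it. Among the 15 measured housekeeping genes 10 were below 0 as well, so such a count is not particular to this list. Of 15 redox, sulfur and metallothionein genes 5 were over 2-fold lower, all with both signals at 250 or more, and 1 was higher (median -0.13). SQOR, which oxidizes hydrogen sulfide, had 289 against 2347 (8.13-fold lower), CAT, catalase, had 1419 against 3718 (2.62-fold lower), and MT2A, a metallothionein, had 13628 against 32601. SOD2 and TXNIP were the other lower genes. CDO1, which catabolizes cysteine, was the higher one at 644 against 192, far under the 4729.9 measured in J3T-1.

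Further genes with large ratios on the lower side came from several families. PPL, the cornified-envelope protein periplakin, had the largest lower ratio among genes with both signals at 250 or more, at 281 against 6357 (22.6-fold lower). NEFL, the neurofilament light chain, had 2134 against 15463 (7.25-fold), with 2561 and 6292 on the arrays labelled J3T-1 and J3T-2A. RGS2, which shuts off G-protein signals, had 3734 against 25192 (6.75-fold). NEFL and RGS2 were high on both arrays of the J3T-2 lines, and PPL kept that order with a wide gap inside each origin (1879 and 2898 for J3T-1 and J3T-2A). SLC2A9, a urate transporter, had 17.2 against 5219.8 (at least 20.9-fold). PDCD4, a translation inhibitor, was 6.90-fold lower, and FGL2, CHCHD7, TCIM, SLC25A33 and SH3BP1 were between 4.74-fold and 6.14-fold lower.

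**Figure D4:**
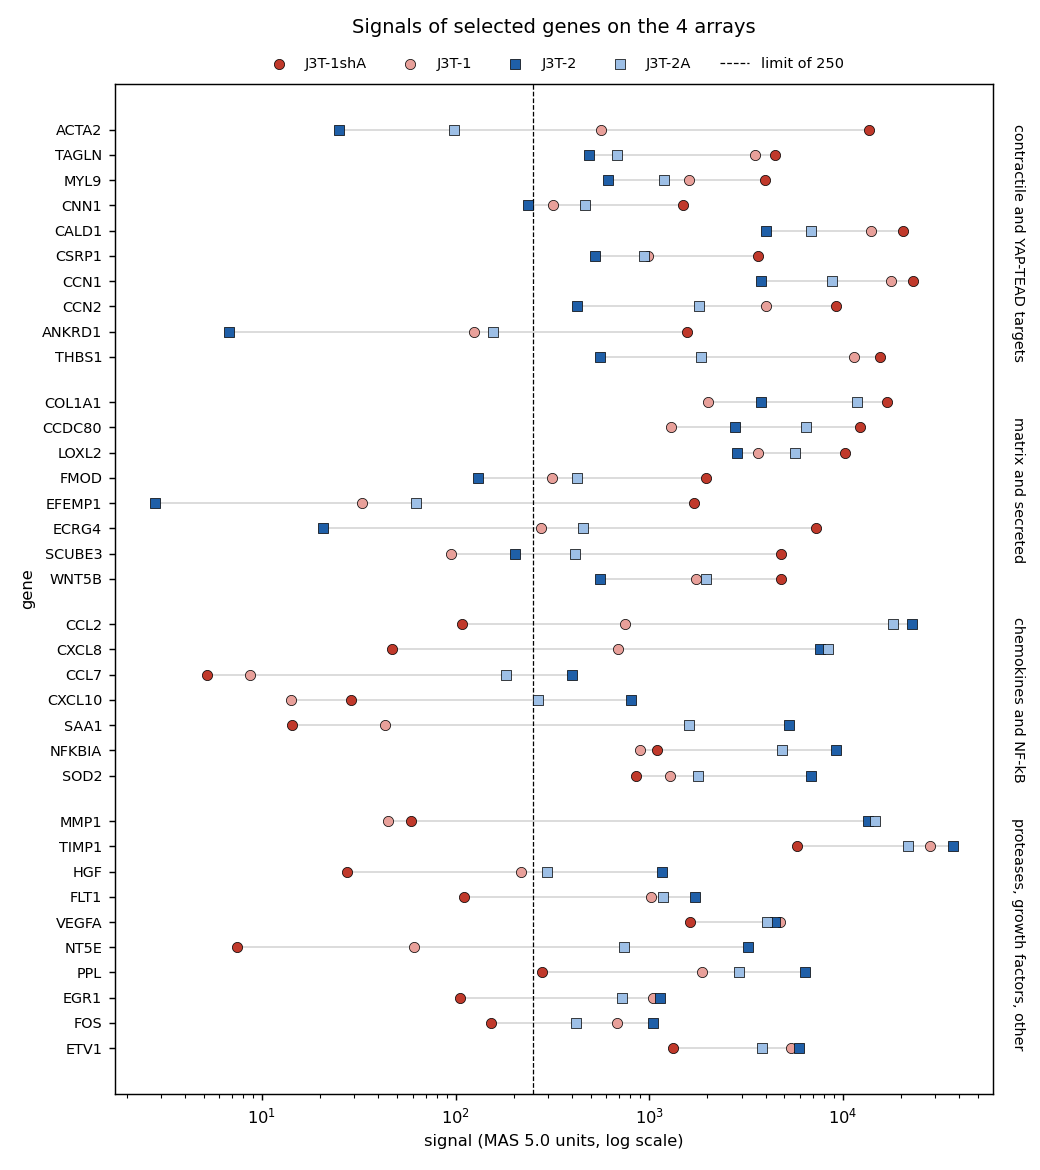
Signals of 35 genes (y axis) on the 4 arrays (x axis, MAS 5.0 units on a log scale), with circles for the lines derived from J3T-1, squares for those derived from J3T-2 and a dashed line at the limit of 250. CCL2, CXCL8, CCL7, CXCL10 and MMP1 separate circles from squares. EFEMP1 and ECRG4 are far higher, and TIMP1, VEGFA and FLT1 lower, on the array labelled J3T-1shA than on any other. ACTA2 shows both patterns: it is by far highest there, and J3T-1 also lies above both squares.

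Annexins and S100 proteins were mostly within 2-fold. ANXA5 had 4299 against 9569 (2.23-fold lower), ANXA3 1083 against 461 (2.35-fold higher, but a log2 ratio of 0.76 by its second probe set), and S100A2 223 against 1114. S100A10, the binding partner of ANXA2, had 16678 against 21178. Of 17 measured members 1 was over 2-fold higher and 2 lower, and the median was -0.24. Among 17 measured mesenchymal glioblastoma markers, TGFBI, MET and IL13RA2 were over 2-fold higher and TIMP1 lower (median -0.13). CD44 had 4498 against 5714 and VIM 43058 against 42738, and CHI3L1, TNC and PDPN were under 250 on both arrays. Of 7 measured proneural markers GPM6A, a neuronal membrane glycoprotein, was over 2-fold higher (1862 against 201), and SOX2, STMN1 and TUBB3 were within 2-fold (median 0.72). Only 3 of the 7 had both signals at 250 or more, with none over 2-fold and a median of 0.19. Of 9 intermediate filament genes 1 was higher (NES) and 2 lower (NEFL and PPL), with a median of -0.13.

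Growth and biosynthesis genes were mostly within 2-fold, as were 90.3% of all measured genes. All 25 measured cell cycle genes were within 2-fold, 22 of them above 0, with a median of 0.38. PLK1 had 1198 against 689, MCM6 13444 against 10281 and TOP2A 9914 against 8139.7. CDKN1A, the inhibitor p21, had 2877 against 5319, and CCND2, a D-type cyclin, was the single one of 8 cyclin D and inhibitor genes over 2-fold different, at 2.09-fold higher (median 0.16). Of 25 cholesterol and fatty acid synthesis genes EBP was the single one over 2-fold different (966 against 2832), and the median was -0.06. In the list of amino acid and unfolded protein stress, CHAC1 was over 2-fold higher and SDF2L1 lower among 16 genes (median -0.14). SDF2L1 had a log2 ratio of -0.95 by its second probe set. All 15 measured housekeeping genes were within 2-fold (median -0.02), and RPLP0, a ribosomal protein gene, had 24987 against 24986. GAPDH and ACTB were under 250 on both arrays, and how well those probe sets read the transcripts was not tested.

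Markers of other cell types were few. For endothelial cells, PECAM1 had 1.0 against 773, while CDH5, VWF, KDR and CLDN5 were under 250 on both arrays, and the summed signal of the 10 markers was 764 on the array labelled J3T-1shA and 1402.5 on that labelled J3T-2. For microglia and macrophages, 1 of 10 markers was measured (C1QA, 515 against 317), PTPRC and CD68 were under 250, and the sums were 881 and 782. Epithelial markers had sums of 801 and 1284, and KRT8 was the single 1 of 8 measured (563 against 1076). Oligodendrocyte markers, 1 of 7 measured, had sums of 1425 and 1530.0, and neuronal markers, 4 of 12 measured, sums of 4846 and 17267, with NEFL making up 15463 of the latter. Fibroblast and pericyte markers had sums of 70130.0 and 60935, but PDGFRB, RGS5 and FAP were under 250 on both arrays. Of 6 measured markers in that list ACTA2 and COL1A1 were over 2-fold higher, THY1 was lower (319.6 against 916) and the median was -0.29. Of the astrocyte list SLC1A3, a glutamate transporter (5506 against 1996), GJA1 and SPARCL1 were over 2-fold higher and NDRG2 lower, with 5 of 12 markers measured, a median of 1.11 and sums of 41061 and 40173. NES, the progenitor filament nestin, had 346 against 94.9. In bulk RNA fewer cells of a kind and less RNA per cell cannot be told apart, and the part of other cells in these ratios was not tested.

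The pair of lines labelled high in annexin A2, J3T-1 over J3T-2A, shares no array with this comparison and also sets a J3T-1 line against a J3T-2 line. In that pair 133 of 6850 measured genes (1.94%) were over 2-fold higher and 186 (2.72%) over 2-fold lower, fewer than between the lines labelled low. Of 6621 genes measured in both pairs, 228 were over 2-fold higher and 295 lower in J3T-1shA over J3T-2, and 98 (1.48%) and 176 (2.66%) in J3T-1 over J3T-2A. Higher in both were 25 genes, 11% of the 228 and 25.5% of the 98. Lower in both were 48 genes, 16.3% of the 295 and 27.3% of the 176. In opposite directions were 34 genes higher and 10 genes lower in J3T-1shA over J3T-2, which is 14.9% of the 228 and 3.39% of the 295. The genes over 2-fold higher in the first pair were more often lower (34) than higher (25) in the second. The same held for all 6621 genes (176 lower and 98 higher), so this order is not particular to them. It is a description of these arrays without a test. Across the genes, which share 4 arrays and are not independent replicates, the log2 ratios of the pairs had a Pearson correlation of 0.16.
Named among the genes lower in both pairs were MMP1, CCL2, CXCL8, SAA1, NT5E, TNFAIP2, CXCL10, MAN1A1, VCAM1 and ITIH1. In all 10 the J3T-1shA signal was under 250, so they have no order. MAN1A1, a mannosidase of the Golgi, had 3.1 and 5.1 on the arrays labelled J3T-1shA and J3T-1 and 753 and 1123 on those labelled J3T-2 and J3T-2A. VCAM1 had 13.1 and 5.5 against 318 and 558. CCL2, CXCL8, SAA1, CXCL10 and VCAM1 belong to the NF-kB list, which was chosen with earlier results of these data known. Named among the genes higher in both were THBS1, TAGLN and ACTA2. ANK3, which anchors membrane proteins to the spectrin skeleton, had 1625 and 1975 against 142 and 232, and AUTS2 had 1234 and 1181 against 268 and 366. XG, KCNB2, CHSY3 and PTGIS were under 500 on every array, with both J3T-2 lines under 250. CDO1 was the remaining one.
The NF-kB list had 8 of 15 genes over 2-fold lower in J3T-1 over J3T-2A as well (median -1.34). The contractile list had 3 of 15 over 2-fold higher (median 0.40), and the TGF-beta and BMP list, with none lower in J3T-1shA over J3T-2, had 6 of 20 over 2-fold lower there (median -0.30). ERK targets had 1 of 17 higher and 1 lower (median 0.35).

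**Figure D5:**
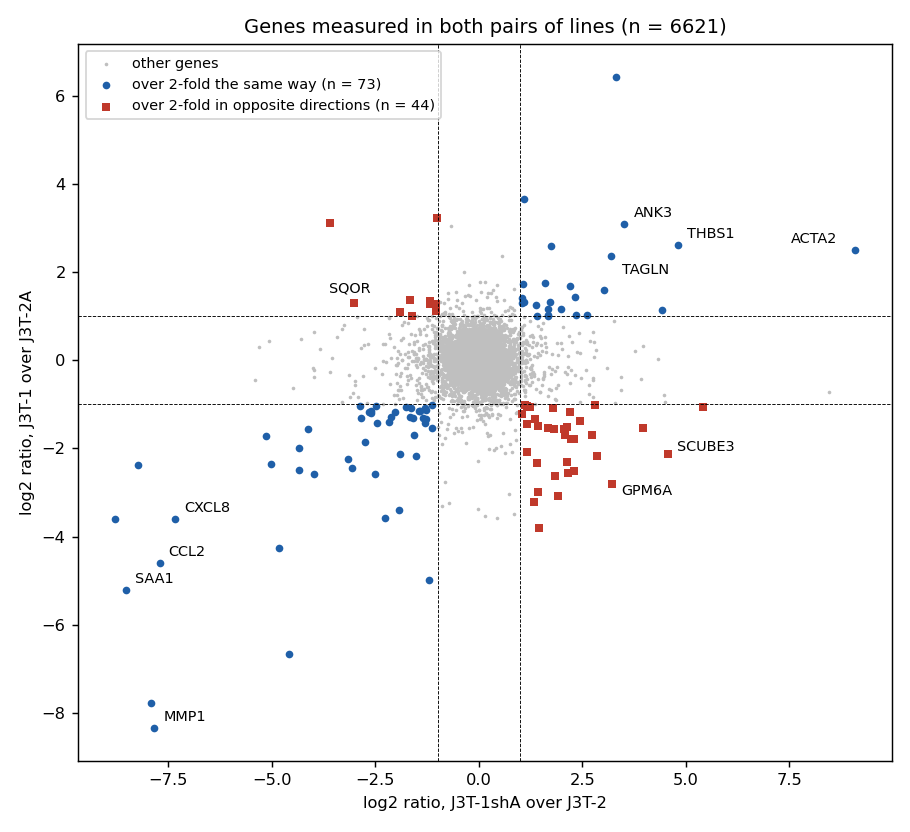
Log2 ratios of 6621 genes measured in both pairs, with J3T-1shA over J3T-2 on the x axis and J3T-1 over J3T-2A on the y axis, 1 array per line and dashed lines at 2-fold. Blue circles are 73 genes past 2-fold in a shared direction, among them MMP1, CCL2 and THBS1, and red squares 44 genes past it in opposite directions, among them SQOR and GPM6A. Signals under 250 enter as they stand, so ratios from them are not exact.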

How the data were processed

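Total RNA of each line was hybridized to 1 GeneChip Canine Genome 2.0 array. The authors computed intensities per probe set with MAS 5.0 in single-array analyses and scaled every array to one trimmed mean, and the deposited table holds these linear intensity values for 42924 probe sets without detection calls. Trimmed means (2% cut at each end) ran from 495.8 to 496.0, which is not the target that the study's methods name, so signals and the limit of 250 are in the units of the deposited table only. The array annotation listed 29693 probe sets, 29254 with 1 gene symbol and 439 with several. Entrez identifiers looked up in RefSeq changed 0 of 27680 symbols.

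The brightest probe set was that with the highest mean over the 4 arrays. Ratios used no pseudocount, floor or further normalization. A fold threshold of 2 was kept from the study, whose P value needs probe-level data and was not recomputed. The ratio calculation was tried before use on simulated signals in which bright genes were given large set changes. That covers neither dim genes nor the spread between cultures. No test between lines was possible with 1 array each. Named genes were ANXA2, per direction the 15 largest ratios with both signals at 250 or more, the 8 brightest with 1 signal under it and the 10 over 2-fold the same way in both pairs with the largest smaller ratio, and members of 37 gene lists over 2-fold (183 genes in all). Other genes were named after their values were seen. The members, lists and rule were chosen with earlier results of these data known. Python 3.11.15, numpy 2.4.6, pandas 2.3.3 and matplotlib 3.10.9 were used.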

Additional observations from a re-analysis of the deposited data

Results flagged for a closer look

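Among the named genes, 22 were over 2-fold in opposite directions between the pair labelled low (J3T-1shA over J3T-2) and the pair labelled high in annexin A2 (J3T-1 over J3T-2A), which share no array. Each pair has 1 array per line, and the difference between the pairs was not tested. Log2 ratios of the signals as they stand are given in that order. All 4 signals reached 250 for 13 of them. For the other 9 (SCUBE3, LTBP1, BAMBI, ANGPT1, TIMP3, GPC4, IL13RA2, GPM6A and CYP1B1) a dim signal was under 250, so the ratio that rests on it is not exact. With such signals taken as 250, 17 of the 22 were still over 2-fold in both pairs and 5 were not: SCUBE3, LTBP1, TIMP3, GPC4 and IL13RA2.

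Of these, 20 were higher on the array labelled J3T-1shA and lower on that labelled J3T-1, each against its J3T-2 line. Matrix genes and proteases in this set were COL1A1 (2.15 and -2.56), COL5A1 (1.15 and -1.43), CCDC80 (2.14 and -2.32), TIMP3 (1.16 and -1.04), PLAU (1.42 and -1.49) and PRSS23 (1.83 and -2.61). Genes of the TGF-beta and BMP pathway were LTBP1 (2.81 and -1.01), BMP6 (2.05 and -1.57), BAMBI (1.80 and -1.57) and TGFBI (1.68 and -1.53). Growth factor and receptor genes were ANGPT1 (2.44 and -1.38), FGFR2 (1.23 and -1.07), NTRK2 (1.36 and -1.32) and IL13RA2, a decoy receptor of interleukin-13 (1.90 and -3.08). For FGFR2 the second probe set gave 0.84 in the pair labelled low. The remaining ones were SCUBE3 (4.57 and -2.13), GPC4 (2.08 and -1.68), GPM6A (3.21 and -2.81), PTGES (1.03 and -1.21), RDH10 (1.42 and -2.99) and CYP1B1 (2.29 and -2.51). The other two, SQOR (-3.02 and 1.30) and PKM (-1.18 and 1.28), ran the opposite way.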

How the results depend on the processing

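No paired analysis was possible because each line has 1 array, and no replicate could be left out. The counts of 308 higher and 372 lower genes stayed within 1.5 times under 7 of 8 alternatives and came to 1657 and 1724 with no signal limit, over 15115 genes. The 25 genes higher in both pairs became 13 at a signal limit of 500, 13 with a pseudocount of 80 and 335 with no limit, and the 48 lower ones 343 with no limit. Of 264 list medians under the alternatives, 249 moved by less than the SD between probe sets. At a limit of 500 the medians were -0.95 for ERK targets, -3.0 for NF-kB genes, 1.83 for YAP-TEAD targets, 0.41 for axon guidance, -0.93 for intermediate filaments and 0.82 for receptor tyrosine kinases, and the retinoid and prostaglandin list reversed to -0.11. With no limit it reversed to -0.21, the Wnt list reversed to -0.038, NF-kB genes had -1.48 and astrocyte markers 0.42. A pseudocount of 80 gave -1.96 for NF-kB genes and 1.39 for contractile genes, and a floor of 160 gave -1.30 and 1.37. No named gene changed direction under any alternative that measured it. A pseudocount, a floor or another signal limit cannot change the sign of a ratio, and median centring moved ratios by only 0.01. For these alternatives that outcome was fixed in advance. Of 183 ratios, 63 moved by more than that SD with the pseudocount and 52 with the floor, both of which shrink ratios of dim genes.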

Other observations

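Genes outside the lists and the naming rule were grouped after their values were seen, so the groups carry no count or median. Further actin-associated genes were higher on the array labelled J3T-1shA. MICAL2, which oxidizes actin, had a signal of 5334 against 1410.4 (3.78-fold). FHOD3, a formin, had 1172 against 264 (4.44-fold), PALLD, palladin, 2194 against 756 (2.90-fold), and ZYX, the focal adhesion protein zyxin, 987 against 329 (3.0-fold). PALLD had a log2 ratio of 0.98 by its second probe set. MYH9, non-muscle myosin, was 2.28-fold higher. ACTA1, skeletal muscle actin, had 949.7 against 5.5, by a probe set whose name marks possible reading of related transcripts. The cadherin CDH11, of mesenchymal cells, had 8769.8 against 1711 (5.12-fold), and CDH2, N-cadherin, 10267 against 4298 (2.39-fold). CDH2 had a log2 ratio of 0.79 by its second probe set. OGN and OMD, small leucine-rich proteoglycans like FMOD, had 1282 against 30.1 and 787 against 50.3, and DPT, dermatopontin, had 1695 against 6.7.

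Some complement and interferon-gamma-induced genes were lower there, though C1QA, a complement gene of macrophages, was within 2-fold on the higher side (515 against 317). SERPING1, the C1 inhibitor, had 665 against 2266 (3.41-fold), and C1R, a complement protease, 62.9 against 382. GBP1, a guanylate-binding protein, had 179 against 1774 (at least 7.10-fold lower), and IDO1, which degrades tryptophan, 12.5 against 543. PSMB10, an immunoproteasome subunit, had 599 against 1851 (3.09-fold lower). Transcription factors were among the lower genes too: PAX6, of neural progenitors, had 681 against 2958 (4.35-fold), NR2F1 2388 against 7936 (3.32-fold) and KLF4 162 against 1945 (at least 7.78-fold). EPAS1, a hypoxia-inducible factor, was higher, at 505 against 45.7. CD70, a ligand of the tumour necrosis factor family, had 72.1 on the array labelled J3T-1shA and 1424, 1234 and 884 on those labelled J3T-2, J3T-1 and J3T-2A.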
